A study of Mus musculus with 21 samples.

Results

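The cytosolic ribosomal protein genes were taken as the protein-coding genes whose mouse symbol is Rpl or Rps followed by a number with optional a, x, y or l endings, or Rplp0, Rplp1, Rplp2 or Rpsa, with at least 10 counts in at least 3 mice. Of 84 symbols of this form, 81 were protein-coding in the annotation, and 80 of these passed the minimum, among 23246 genes that passed it in all. These 80 genes, 49 of the large subunit and 31 of the small subunit, are described here. The coding gene that did not pass was Rpl10l, which had no count in any mouse. Rpl32l, Rpl6l and Rps4l were annotated as pseudogenes and were not taken.

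Cytosolic ribosomes join a large subunit, which forms the peptide bonds, to a small subunit, which reads the mRNA, and each subunit holds its own ribosomal proteins around a core of ribosomal RNA. Nearly every cell type makes them, and their mRNAs are short, abundant and start with a run of pyrimidines (the terminal oligopyrimidine or TOP motif) through which mTORC1 and LARP1 control their translation. A few genes are paralogues with restricted expression, such as Rpl3l in striated muscle and Rpl39l in testis, and many have processed pseudogene copies in the genome whose sequence is close to that of the parent.

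RNA was from the forebrains of 21 mice. The parental lines E2H, E3H and E4H (3 mice each) were homozygous for a human APOE2, APOE3 or APOE4 allele that replaces mouse Apoe, on a C57BL6 background, and were 9 to 10 months old. PS/E4H, PS/E3H and PS/E2H (4 mice each) carried the same homozygous APOE alleles together with 1 copy of the PS19 transgene, which encodes human tau with the P301S mutation under the mouse prion promoter. The PS19 transgene came from a line kept on B6/C3H and crossed to the APOE lines, and the PS19 mice were killed once the hindlimbs were paralyzed. Where PS19 mice are set against parental mice, tau genotype, strain background, paralysis and age at death cannot be told apart. No mouse carried a mouse Apoe allele. Replicates were separate mice. The study's methods place a few females among the E4H, PS/E2H and PS/E4H mice, the labels do not say which, and sex was not fitted.

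Total counts ran from 59265459 to 75932183 per mouse, and the 80 genes received from 620864 to 1008227 of them. All 12 neuronal markers were detected in every group, at summed levels of 7174 to 8711 CPM (counts of a gene relative to the TMM-scaled library total) per mouse. The summed level of 12 microglial markers, none of which was at 0 in any group, ran from 489 to 677 CPM in the parental mice and from 826 to 1545 in the PS19 mice. Oligodendrocyte markers (10 genes) summed to 4999 to 5519 in E3H, 5450 to 6463 in E4H, 6638 to 7340 in E2H and 6294 to 9579 in the PS19 mice. Astrocyte markers (10 genes) summed to 3920 to 4573 in the parental and 5593 to 7642 in the PS19 mice. Erythroid genes (4 haemoglobin genes and Alas2) summed to 196 to 778 CPM in E2H, 190.1 to 334 in the other parental mice and 29.1 to 379 in the PS19 mice. Mitochondrially encoded genes took 6.32% to 9.66% of the counts. In these bulk samples, a lower number of cells of a type and less RNA per cell cannot be told apart.

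The start of the mRNA is the part of these genes that the TOP motif occupies, so it is shown for the most and least abundant genes, the ribosomal stalk, Rpsa, Rps6, the paralogues, and the genes whose levels most or least followed the others. RefSeq start-site sequences (GRCm38.p6) were matched by symbol for 60 of the 80 genes; among the genes of this set, Rplp1, Rpl17 and Rpl21 were not matched. Each window below has the 10 bases before and the 20 bases from the annotated start, 5′ to 3′ on the strand of the gene. Capitals mark the longest run of a C followed by at least 5 further C or T, searched on that strand only.
Rps15 (chr10:80292421-80292450, + strand): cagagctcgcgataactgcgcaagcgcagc
Rpl4 (chr9:64173377-64173406, + strand): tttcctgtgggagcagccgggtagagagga
Rpl19 (chr11:98026700-98026729, + strand): aaacgccctcactgcgcatgtgcgccgcgg
Rps28 (chr17:33824543-33824572, - strand): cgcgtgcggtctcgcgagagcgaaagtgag
Rps27l (chr9:66946076-66946105, + strand): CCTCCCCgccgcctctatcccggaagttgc
Rpl3l (chr17:24727816-24727845, + strand): ttctagctctgtcatttgacctctggtgcc
Rpl39l (chr16:10170218-10170247, + strand): aggCCTTTCCggatttccggtggtcgccat
Rplp0 (chr5:115559457-115559486, + strand): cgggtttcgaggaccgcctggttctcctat
Rplp2 (chr7:141447641-141447670, + strand): cagcgtCTTCCTTTCgccgccggacgccgc
Rpsa (chr9:120127756-120127785, + strand): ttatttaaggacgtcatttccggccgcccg
Rps6 (chr4:86857348-86857377, - strand): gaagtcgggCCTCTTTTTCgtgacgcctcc
Rps4x (chrX:102189372-102189401, - strand): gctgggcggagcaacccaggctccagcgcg
Rpl36al (chr12:69184048-69184077, - strand): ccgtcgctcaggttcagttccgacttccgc
Rps19 (chr7:24884582-24884611, + strand): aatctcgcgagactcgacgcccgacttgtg
Rps25 (chr9:44407704-44407733, + strand): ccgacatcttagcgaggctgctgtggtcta
Such a run was found in the windows of 35 of the 60 matched genes (58.3%) and of 6700 of 26965 other genes (24.8%). Among the 15 windows shown, Rps27l, Rpl39l, Rplp2 and Rps6 had a run, which crossed the start site in Rplp2 and Rps6. These RefSeq starts lay up to 575 bases from the outermost start of the gene in the annotation, so a window without a run says only that these letters are not in these 30 bases. In PS/E4H against E4H, the median log2 fold change was 0.45 over the 34 tested genes with a run, 0.39 over the 25 without one and 0.42 over the 20 that were not matched. With and without a run it was 0.29 and 0.27 in PS/E3H against E3H and 0.47 and 0.45 in E2H against E3H. The order was the reverse in E4H against E3H, 0.07 with a run and 0.10 without. The difference by run was not tested.

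Levels were compared between genes as FPKM, fragments scaled by library depth and, in the deposited table, by the merged exon length of a gene. Rplp1, a protein of the ribosomal stalk, had the highest median over the 21 mice, 396 FPKM (range 338 to 570.4). Rps15, which sits in the head of the small subunit, followed at 363 FPKM (274 to 535), then Rpl4 at 239.8 (196 to 287) and Rpl19 at 226 (176 to 299.9). The ranges of Rplp1 and Rps15 overlapped, as did those of Rpl4 and Rpl19. Each pair was measured in the same mice, so overlap of ranges over mice does not bear on its order within a mouse. At the low end were Rps28 at 18.2 FPKM, the paralogue Rps27l at 10.5 and Rpl21 at 10.3. Rpl3l, the striated muscle paralogue of Rpl3, had a median of 0.159 FPKM, and Rpl39l, the testis paralogue of Rpl39, had a median of 0. On the scale of CPM per kilobase of annotated transcript, the highest medians were those of Rps24 (481.8), Rps15 (469) and Rplp1 (436), so the order at the top depended on the length used.

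Most of the 80 genes moved together from mouse to mouse. The rank correlation of a gene with the median of the other members over the 21 mice had a median of 0.949 and was above 0.9 for 59 genes. These correlations share library, depth and normalization and are given as a description. Rps25 (0.991) and Rps19 (0.988), both of the small subunit, followed the others most closely. Rpl3l (-0.23), Rpl39l (0.32), Rpl17 (0.48) and Rpl21 (0.57) followed them least.

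**Figure D1:**
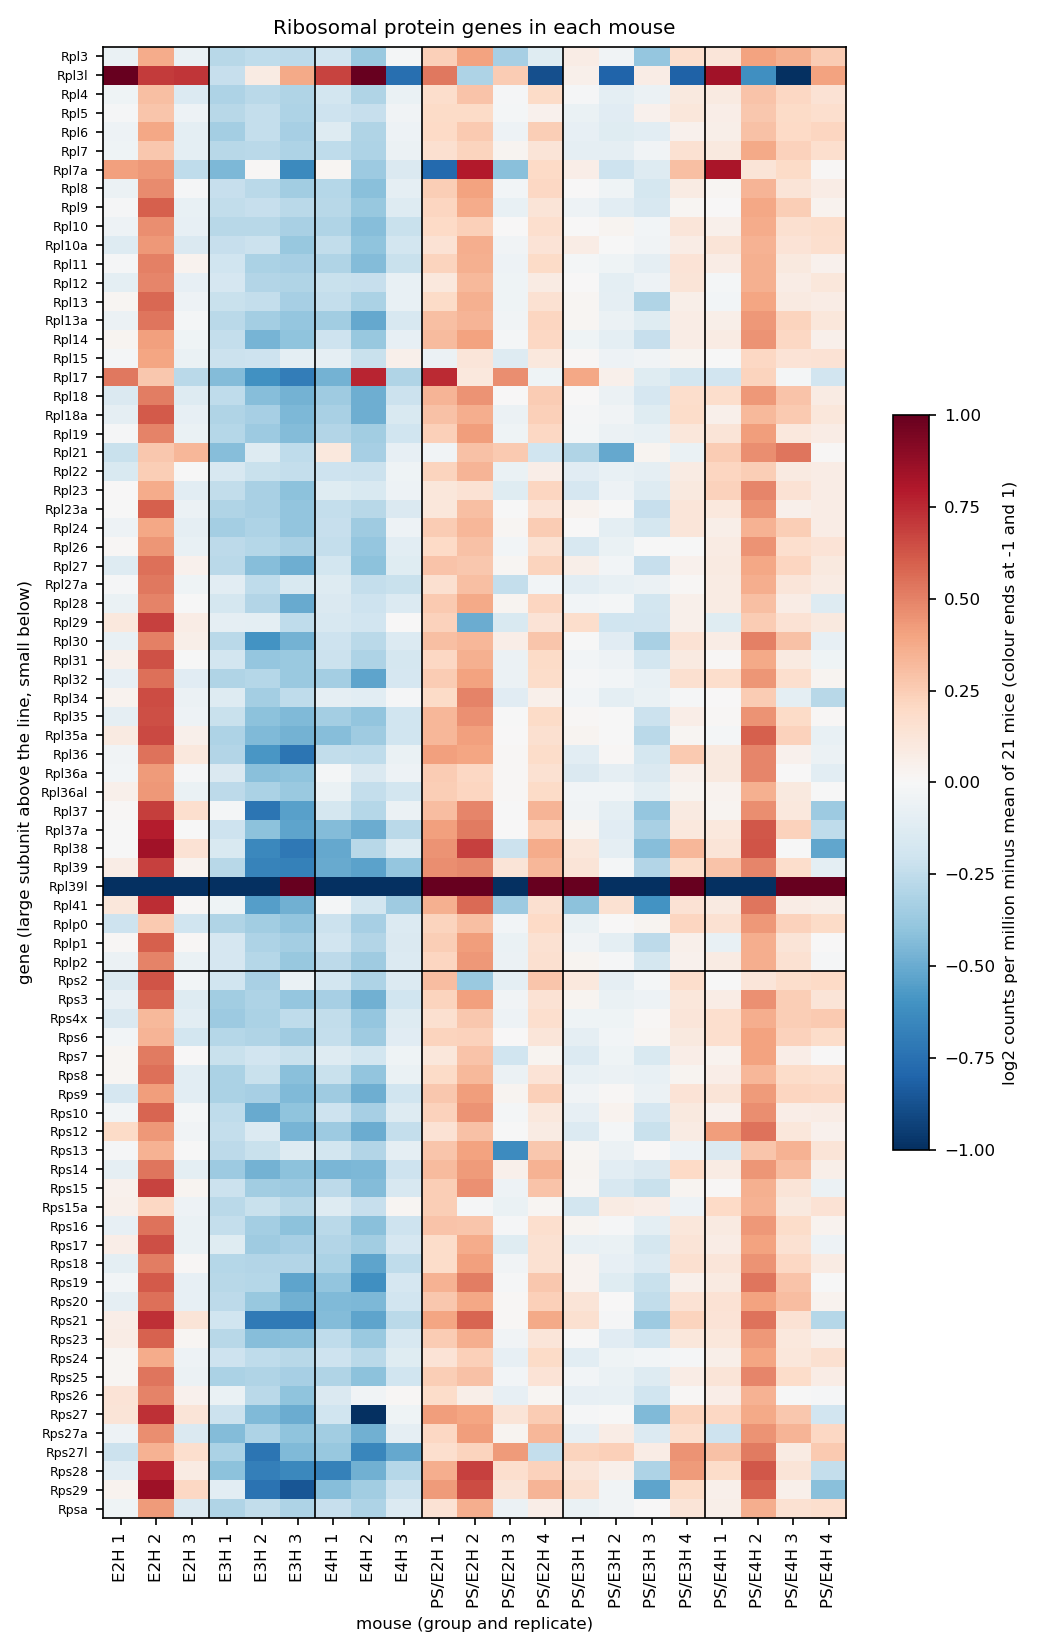
Heat map of 78 of the 80 ribosomal protein genes (rows) in the 21 mice (columns, by group and replicate), coloured by log2 CPM minus the gene's mean over all mice, with colours ending at -1 and 1. Column E2H 2 is red in nearly every row, the E3H and E4H columns are mostly blue, and Rpl3l, Rpl7a, Rpl17, Rpl29, Rpl39l and Rps27 have single cells that differ from their column.

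The summed share of the library on the 80 genes was lowest in the E3H and E4H mice. It was 1.05, 1.03 and 0.984% in the 3 E3H mice and 1.05, 0.977 and 1.13% in the 3 E4H mice. In E2H it was 1.22, 1.61 and 1.197%, so 1 mouse, E2H replicate 2, stood apart from the other 2. In the PS19 groups it was 1.43, 1.55, 1.21 and 1.37% in PS/E2H, 1.197, 1.23, 1.16 and 1.34% in PS/E3H and 1.33, 1.61, 1.37 and 1.33% in PS/E4H. Group means were 1.34% ± 0.235 (SD, n = 3) for E2H, 1.02% ± 0.0328 (n = 3) for E3H, 1.05% ± 0.0759 (n = 3) for E4H, 1.39% ± 0.139 (n = 4) for PS/E2H, 1.23% ± 0.0792 (n = 4) for PS/E3H and 1.41% ± 0.134 (n = 4) for PS/E4H. Every PS/E3H mouse lay above every E3H mouse and every PS/E4H mouse above every E4H mouse, while PS/E2H and E2H overlapped.

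In E2H replicate 2 and PS/E4H replicate 2, where the ribosomal protein genes stood high, several other measures stood high in their group too. In E2H replicate 2, the median log2 deviation of the 80 genes from their mean over all mice was 0.51. In the same mouse it was 0.55 for the nuclear genes of oxidative phosphorylation, 0.34 for 996 other coding genes of like transcript length (575 to 968 bases, the middle range of the 80 genes) and 0.43 for the pseudogene copies of the ribosomal protein genes. Its mitochondrially encoded share was the highest of all mice, 9.66%, against 8.09% and 7.73% in the other E2H mice. Between groups this share did not follow the family. Its mean was 8.49% in E2H and 7.01% in PS/E2H, where the family's mean shares were 1.34% and 1.39%. In PS/E4H replicate 2, the mouse of that group with the highest share, the 80 genes stood at 0.40, the genes of like length at 0.16 and the oxidative phosphorylation genes at 0.21. After a per-mouse offset for transcript length fitted on the other coding genes, the median deviation of the 80 genes was -0.21, -0.22 and -0.18 in the E3H mice and 0.04, -0.13, -0.08 and 0.00041 in the PS/E3H mice, and E2H replicate 2 still stood at 0.36. The median deviation of the microglial markers in E2H replicate 2 was -0.28, above the other E2H mice (-0.57 and -0.64) and below all 12 PS19 mice (-0.12 to 1.05).

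**Figure D2:**
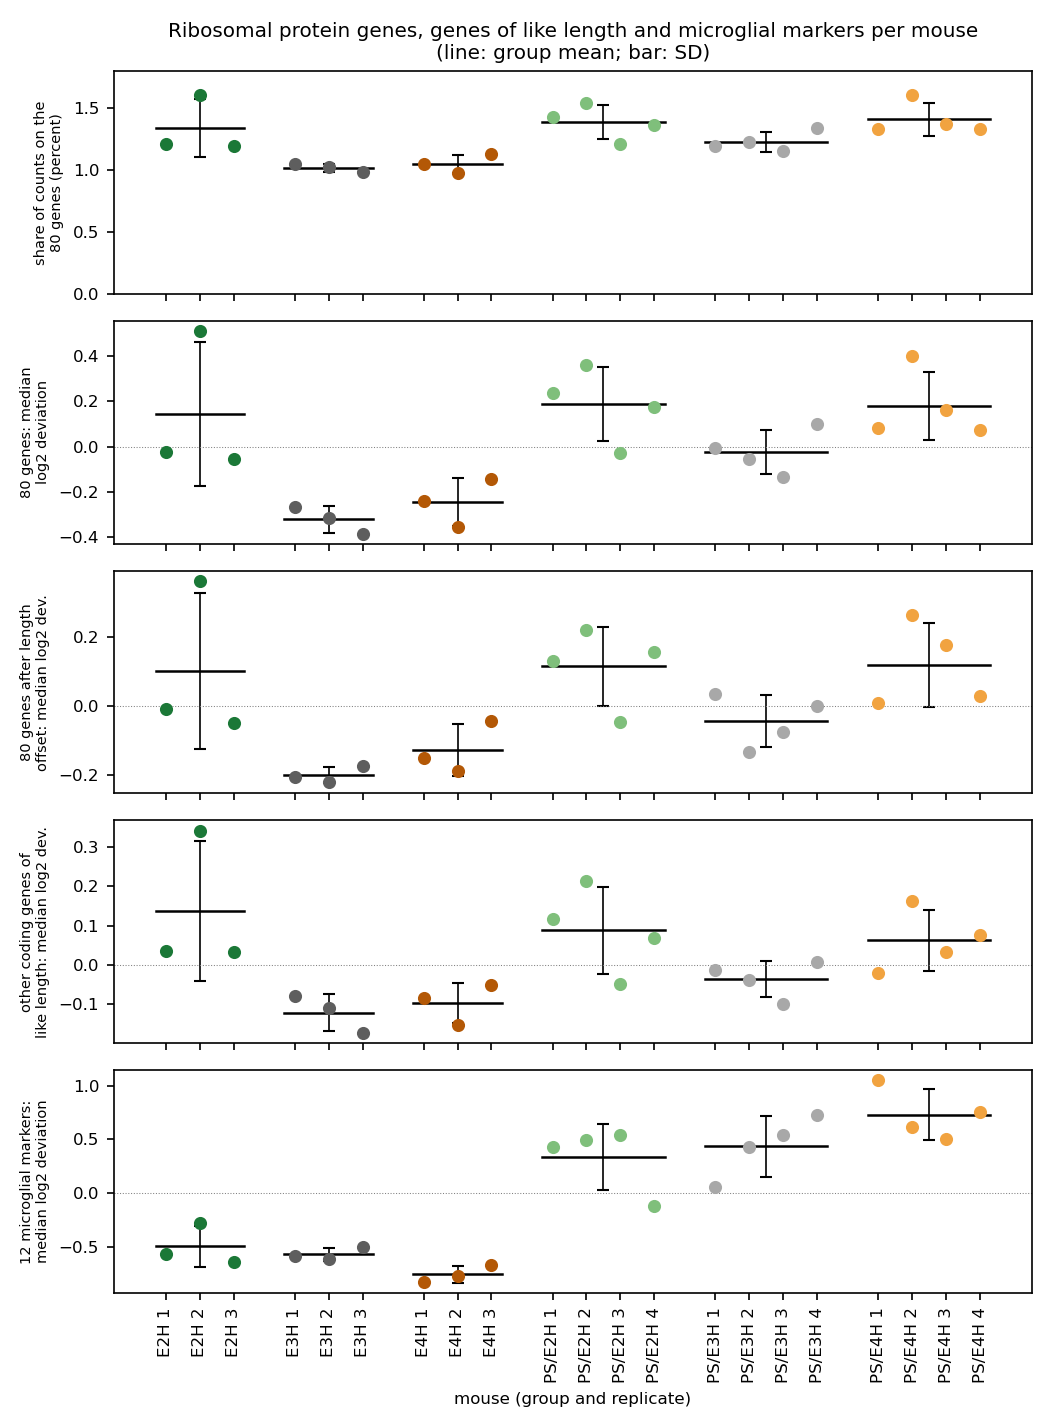
Points are single mice by group, lines are group means and bars are SD (n = 3 or 4). From the top, the panels show the share of counts on the 80 genes in percent, the median log2 deviation of the 80 genes, the same after the length offset, the median log2 deviation of 996 other coding genes of like transcript length, and that of 12 microglial markers. E2H replicate 2 is the highest of its group in every panel, and every E3H mouse lies below every PS/E3H mouse in all panels but the fourth.

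Among the parental lines, levels in E2H were above those in E3H for every tested gene, but no gene passed the test. In E2H against E3H, all 79 tested genes (Rpl39l did not pass the filter on low counts) had a log2 fold change above 0, with a median of 0.47 and a range of 0.24 to 0.93, beside a median of -0.01 over all genes. None passed an adjusted p of 0.05 in edgeR's quasi-likelihood test, where 0.178% of all genes did, and 77 had an unadjusted p under 0.05, as 8.25% of all genes did in that direction. DESeq2's Wald test called 49, beside 2.29% of the genes it gave an adjusted p, in the same direction. For 76 of the 79 the E2H and E3H mice did not overlap, where 12.9% of all genes did so in that direction. Rpl35a, of the large subunit, had the smallest p. It stood at 135, 199.6 and 131 CPM in the E2H mice and 102, 93.1 and 90.9 in the E3H mice. Every E2H mouse was higher, and E2H replicate 2 was far above the other 2. Its log2 fold change was 0.69 ± 0.15 (SE, edgeR adjusted p = 0.211). The 4 genes with the largest fold changes were Rps29 (0.93), Rps28 (0.86), Rps21 (0.85) and Rpl38 (0.85), which have some of the shortest mRNAs of the family. Without E2H replicate 2 the median was 0.28. The oligodendrocyte markers had a median of 0.34 in this comparison and the mitochondrially encoded genes 0.41. All 5 erythroid genes lay above 0 (median 0.76), 1 of 10 endothelial and mural markers did (median -0.27) and 1 of 6 long nuclear RNAs did (median -0.36). None of these genes was called, and their part was not tested.

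Between E4H and E3H no gene passed the test. In E4H against E3H the median log2 fold change was 0.08, 63 of 79 genes lay above 0 and 16 below, beside 0.162% of all genes called. Only 6 genes had an unadjusted p under 0.05, beside 3.33% of all genes in that direction, 8 did not overlap, beside 6.3%, and DESeq2 called 0. Rpl23, of the large subunit, had the smallest p, with 98.4, 96.2 and 104 CPM in E4H and 90.4, 85.6 and 80.6 in E3H. The groups did not overlap, but the log2 fold change of 0.22 ± 0.06 (SE, edgeR adjusted p = 0.422) did not pass. Rps12 (-0.09) and Rps18 (-0.07), both of the small subunit, went furthest the other way. The largest log2 fold change was that of Rpl17 (0.68 ± 0.26 SE), which rested on E4H replicate 2, described further with the single mice.

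In E4H against E2H every one of the 79 genes lay below 0, with a median of -0.41, and none was called where 0.216% of all genes were. An unadjusted p under 0.05 was reached by 56, beside 6.97% of all genes in that direction, and 53 did not overlap between the groups, beside 11.5% of all genes. DESeq2 called 16, beside 1.01% of all genes in that direction. Rpl39, whose protein lines the peptide exit tunnel, had the smallest p. Its level was 47.8, 72.9 and 46.7 CPM in E2H and 32.01, 31.4 and 34.8 in E4H, and the groups did not overlap. Its log2 fold change was -0.76 ± 0.16 (SE, edgeR adjusted p = 0.255). Without E2H replicate 2 the median was -0.21. All 5 erythroid genes lay below 0 here (median -1.10) and all 6 long nuclear RNAs above 0 (median 0.33), with none called, and their part was not tested.

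Within the PS19 mice no gene was called between APOE lines. In PS/E2H against PS/E3H the median log2 fold change was 0.21 with 77 of 79 genes above 0, and 36 had an unadjusted p under 0.05, beside 0.113% of all genes called and 5.72% at that unadjusted p. For 0 of the 79 did every PS/E2H mouse lie above every PS/E3H mouse, beside 2.6% of all genes. Rpl37, of the large subunit, led with 125, 141, 100.3 and 127 CPM in PS/E2H against 98.05, 94.1, 76.8 and 107 in PS/E3H. The 2 groups overlapped, and its log2 fold change was 0.39 ± 0.12 (SE, edgeR adjusted p = 0.403). Rps27l (-0.09) and Rpl29 (-0.02) lay below 0. In PS/E4H against PS/E3H the median was 0.21 with 78 of 79 above 0, and 35 had an unadjusted p under 0.05, beside 0.0197% of all genes called and 2.94% at that unadjusted p. For 12 genes these groups did not overlap, beside 2.03% of all genes. Rpl21, of the large subunit, led with a log2 fold change of 0.52 ± 0.14 (SE, edgeR adjusted p = 0.758), and Rpl17 (-0.09) was the single gene below 0. In PS/E4H against PS/E2H, 39 of 80 genes lay above 0 and 41 below, with 0.119% of all genes called. Rpl17 (-0.39 ± 0.16 SE, edgeR adjusted p = 0.3795) was the single gene with an unadjusted p under 0.05, and summed with its pseudogene copies its log2 fold change was 0.02, so this direction was lost. DESeq2 called 0 of the ribosomal protein genes in these 3 comparisons. PS/E2H and PS/E4H were each compared with the same PS/E3H mice.

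On the APOE3 and APOE4 backgrounds many ribosomal protein genes were higher in the PS19 mice. In PS/E4H against E4H, 59 of the 79 tested genes rose and none fell, beside 15.6% of all genes called in either direction and 8.62% called higher. The median log2 fold change was 0.42 (1.34-fold), and 77 of 79 lay above 0. Rps4x, encoded on the X chromosome and part of the small subunit, had the smallest p. Its level was 303, 346, 319 and 324 CPM in PS/E4H and 228, 206 and 246 in E4H, without overlap. It rose by 0.51 ± 0.08 (SE, edgeR adjusted p = 0.00242) on the log2 scale. Rps9, a small subunit protein near the decoding region, stood at 213, 261, 226 and 225 in PS/E4H and 152, 139 and 169 in E4H. The groups did not overlap and it rose by 0.59 ± 0.09 (SE, edgeR adjusted p = 0.00252). The groups did not overlap for 63 of the 79 genes, beside 15% of all genes in that direction. Rpl3l (-0.65 ± 0.77 SE) and Rpl17 (-0.14 ± 0.25 SE) lay below 0. With an offset for transcript length, fitted on other coding genes, 29 calls were left. Leaving out E4H replicate 2 left 23 calls and leaving out E4H replicate 1 left 28, with medians of 0.35 to 0.49 over all 7 mice left out in turn. Of the markers, 11 of 12 microglial, 8 of 10 oligodendrocyte and 8 of 10 astrocyte genes were called higher in the same comparison, with medians of 1.54, 0.45 and 0.52. Called lower were 4 of 6 long nuclear RNAs (median -0.76) and 4 of 12 neuronal markers (median -0.19), while 2 neuronal markers were called higher. The part of these genes in the difference was not tested.

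In PS/E3H against E3H, 31 of 79 genes rose and none fell, beside 5.37% of all genes called in either direction and 3.35% called higher. The median was 0.28 (1.22-fold), with 78 of 79 above 0, and 54 genes did not overlap, beside 10.5% of all genes in that direction. Rps9 had the smallest p here, at 190.3, 196, 187 and 214 CPM in PS/E3H against 157, 155 and 143 in E3H. All 4 PS/E3H mice were above all 3 E3H mice, and it rose by 0.37 ± 0.07 (SE, edgeR adjusted p = 0.0172). Rps3, which lines the mRNA entry channel, rose by 0.35 ± 0.06 (SE, edgeR adjusted p = 0.0174), and Rpl10, a late-joining protein of the large subunit, rose by 0.31 ± 0.06 (SE, edgeR adjusted p = 0.0181). The single gene below 0 was Rpl3l (-0.43 ± 0.55 SE). The count rested on each E3H mouse: without any 1 of the 3 it was 0, without PS/E3H replicate 4 it was 3 and without PS/E3H replicate 2 it was 12. The median stayed between 0.24 and 0.32. With the length offset 3 calls were left, with a median of 0.16, while DESeq2 called 53, beside 7.35% of all genes in that direction. Here 10 of 12 microglial, 7 of 10 oligodendrocyte and 8 of 10 astrocyte markers were called higher, with medians of 0.91, 0.36 and 0.41. Of the long nuclear RNAs 1 of 6 was called lower (median -0.50), and all 5 erythroid genes lay below 0 (median -0.76) with none called. Their part was not tested.

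In PS/E2H against E2H the genes lay on both sides of 0. The median was 0.01, with 45 of 80 above 0, and none was called where 0.752% of all genes were. No gene but Rpl39l had an unadjusted p under 0.05, and DESeq2 called 0. Rpl39l was at 0 in all 3 E2H mice and passed the filter on low counts through the PS/E2H mice, so nothing is read from its p. Rplp0 had 236, 250, 199 and 233 CPM in PS/E2H and 175, 243 and 177 in E2H, and the groups overlapped only through E2H replicate 2. Its log2 fold change was 0.21 ± 0.13 (SE, edgeR adjusted p = 0.636). Rpl29 (-0.36 ± 0.19 SE) and Rpl3l (-0.87 ± 0.50 SE) lay furthest below 0. Without E2H replicate 2 the median was 0.22, still with 0 calls. The microglial markers had 5 of 12 called higher in this comparison, with a median of 0.77, and all 5 erythroid genes lay below 0 (median -1.72) with none called.

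**Figure D3:**
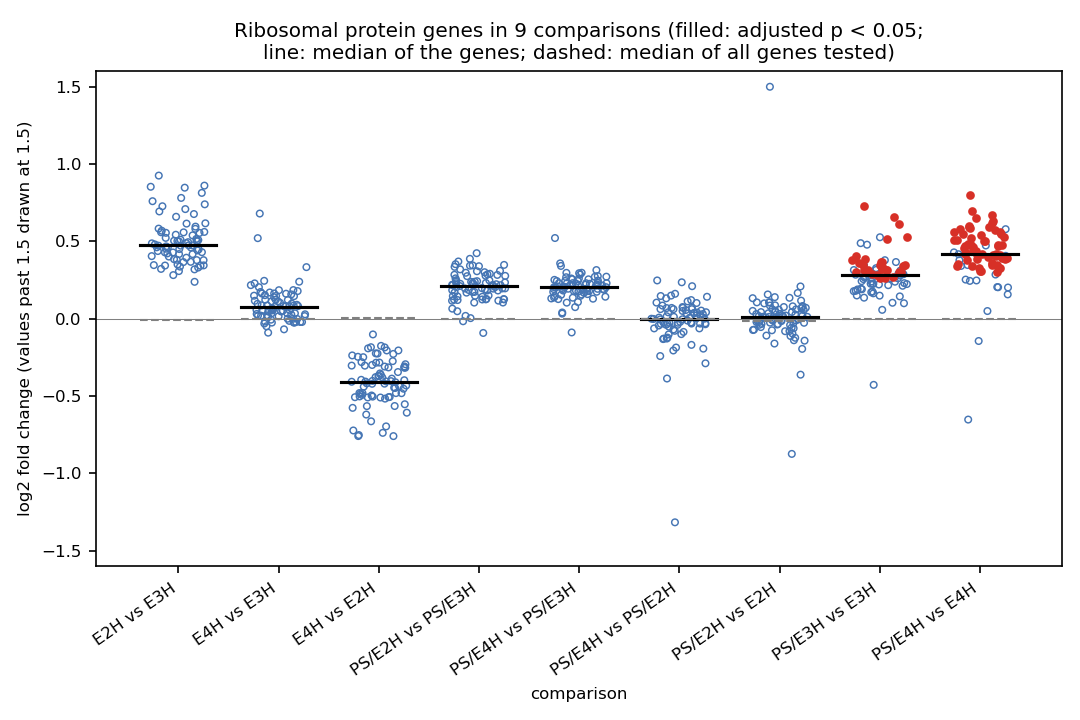
Each point is 1 ribosomal protein gene's log2 fold change in 1 of the 9 comparisons, filled where edgeR's adjusted p is under 0.05. The black line is the median of the genes and the dashed line that of all genes tested. Filled points appear in PS/E3H vs E3H (31) and PS/E4H vs E4H (59), while the points of E2H vs E3H lie as high without a call. Values past 1.5 are drawn at 1.5.

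Averaged contrasts used all 21 mice in 1 model and share their mice with the pairs above. PS19 minus parental mice, averaged over the 3 APOE lines, gave 53 genes higher and none lower of 80, beside 21.8% of all genes called and 11.9% called higher, with a median log2 difference of 0.25. Rplp0, the base of the stalk, rose most clearly, by 0.36 ± 0.06 (SE, edgeR adjusted p = 0.000195). Its level ran from 154 to 243 CPM in the parental mice and from 194 to 274 in the PS19 mice. Rps27l rose by 0.53 ± 0.09 (SE, edgeR adjusted p = 0.000337) and Rps9 by 0.38 ± 0.07 (SE, edgeR adjusted p = 0.000357). Rpl3l (-0.64 ± 0.36 SE) and Rpl29 (-0.01 ± 0.09 SE) lay below 0. The microglial markers moved with this contrast, 11 of 12 called higher with a median of 1.05, as did 10 of 10 astrocyte markers (median 0.40) and 6 of 10 oligodendrocyte markers (0.28). Called lower were 4 of 6 long nuclear RNAs (median -0.50) and 5 of 12 neuronal markers (-0.11), while 2 neuronal markers were called higher. All 5 erythroid genes lay below 0 (median -0.95) with none called. The part of these genes in the difference was not tested. With the length offset the count was 34.

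APOE2 minus APOE3, averaged over tau genotype, gave 55 genes higher and none lower, beside 3.88% of all genes called and 2.77% called higher, with a median of 0.35. Rpl39 led at 0.58 ± 0.11 (SE, edgeR adjusted p = 0.0105). Its levels were 47.8, 72.9 and 46.7 in E2H and 37.5, 28.6 and 28.5 in E3H, and 62.9, 63.3, 49.8 and 57.2 in PS/E2H and 49.7, 44.98, 37.2 and 51.6 in PS/E3H. The parental groups did not overlap and the PS19 groups did. Rps23, at the decoding centre, rose by 0.43 ± 0.09 (SE, edgeR adjusted p = 0.0184), and Rpl14, of the large subunit, by 0.41 ± 0.09 (SE, edgeR adjusted p = 0.0189). The count rested on single mice. It was 1 without E2H replicate 2, with a median of 0.24, and 19, 1 and 0 without E3H replicates 1, 2 and 3. It was 35 without E4H replicate 1, 15, 6 and 27 without PS/E2H replicates 1, 2 and 4, and 18 and 4 without PS/E3H replicates 2 and 3. With the length offset it was 13. Of the markers, 3 of 10 endothelial and mural genes were called lower (median -0.28), and 2 of 10 oligodendrocyte (median 0.06) and 2 of 13 mitochondrially encoded genes (median 0.17) were called higher, as were 1 of 10 astrocyte and 1 of 12 neuronal markers. All 6 long nuclear RNAs lay below 0 (median -0.22) and all 5 erythroid genes above 0 (median 0.30), with none called, and the part of these genes was not tested. APOE4 minus APOE3 called 0 (median 0.14, 0.131% of all genes called), with 20 genes at an unadjusted p under 0.05 (3.02% of all genes), and APOE4 minus APOE2 called 0 (median -0.22, 0.695% of all genes called), with 50 (9.57%). Rpl23 (0.26 ± 0.08 SE, edgeR adjusted p = 0.429) and Rpl39 (-0.45 ± 0.11 SE, edgeR adjusted p = 0.0627) had the smallest p in these 2 contrasts. DESeq2 called 0 and 5, the latter beside 2.22% of all genes in that direction.

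Whether the PS19 difference depended on the APOE line was tested by interaction terms, and no ribosomal protein gene was called in any of the 3, nor was any other gene (0% called). For APOE4 against APOE2 the median interaction was 0.43, a larger PS19 difference on the APOE4 background, and 49 of 80 genes had an unadjusted p under 0.05, beside 6.19% of all genes in that direction. DESeq2 called 2, beside 0.597% of all genes in that direction. Rps12 led at 0.73 ± 0.18 (SE, edgeR adjusted p = 0.175). Its levels were 89.3, 105 and 76.1 in E2H and 86.2, 95.7, 77.7 and 82.8 in PS/E2H, and 60.6, 55.3 and 66.1 in E4H and 104, 114, 84.3 and 80.6 in PS/E4H. Every PS/E4H mouse was above every E4H mouse, and the PS/E2H and E2H mice overlapped. Without E2H replicate 2 this median was 0.21. The median interaction was -0.28 for APOE2 against APOE3, with 9 genes at an unadjusted p under 0.05, all lower (3.36% of all genes), and 0.14 for APOE4 against APOE3, with 1 in each direction. DESeq2 called 0 in both.

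By role, the 3 proteins of the stalk, which recruits the translation GTPases to the large subunit, had unlike calls. Rplp0 rose in PS/E3H against E3H (0.38 ± 0.07 SE, edgeR adjusted p = 0.0186) and in PS/E4H against E4H (0.48 ± 0.08 SE, edgeR adjusted p = 0.00453). Rplp1 had 195, 182 and 201 CPM in E4H and 211, 286, 243 and 224 in PS/E4H, without overlap, but its log2 fold change of 0.32 ± 0.10 (SE, edgeR adjusted p = 0.0536) just missed the threshold. Rplp2 rose in PS/E4H against E4H (0.39 ± 0.09 SE, edgeR adjusted p = 0.0176) and missed it in PS/E3H against E3H (0.24 ± 0.08 SE, edgeR adjusted p = 0.109). The difference between the 3 genes was not tested.

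Rps6, the small subunit protein that S6 kinase phosphorylates downstream of mTORC1, had 230.2, 227 and 218 CPM in E3H and 262, 274, 283 and 299 in PS/E3H. In E4H it had 237, 219 and 258, and in PS/E4H 314, 369, 328 and 317. Neither pair overlapped. It rose by 0.30 ± 0.06 (SE, edgeR adjusted p = 0.0255) and by 0.47 ± 0.08 (SE, edgeR adjusted p = 0.00425). Rpsa, the small subunit protein also known as the laminin receptor precursor, rose by 0.28 ± 0.06 (SE, edgeR adjusted p = 0.0319) and by 0.41 ± 0.08 (SE, edgeR adjusted p = 0.00845). Both genes were called in PS19 minus parental mice, and Rps6 alone of the 2 was called in APOE2 minus APOE3 (0.26 ± 0.07 SE, edgeR adjusted p = 0.0401).

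Among the subunits, 33 of 48 large subunit genes and 26 of 31 small subunit genes were called higher in PS/E4H against E4H, beside 8.62% of all genes, with medians of 0.40 and 0.51. In PS/E3H against E3H the counts were 16 of 48 and 15 of 31, beside 3.35% of all genes, with medians of 0.27 and 0.31. The difference between the subunits was not tested. Ribosomal genes outside the naming rule lay in the same range. Rack1, the scaffold at the head of the small subunit, rose by 0.48 ± 0.06 (SE, edgeR adjusted p = 0.001498) in PS/E4H against E4H, and Fau, which encodes a ubiquitin-like protein fused to a small subunit protein, by 0.55 ± 0.09 (SE, edgeR adjusted p = 0.00468). Rps3a1 rose by 0.45 ± 0.09 (SE, edgeR adjusted p = 0.00849). Of the 2 like-named genes Rpl22l1 and Rpl7l1, the first rose (0.46 ± 0.11 SE, edgeR adjusted p = 0.0238) and the second had 0.15 ± 0.09 (SE, edgeR adjusted p = 0.331).

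Of the paralogues, Rps27l and Rpl36al are given first, then Rpl39l and Rpl3l, which lay near the detection limit. Rps27l, a p53-inducible paralogue of Rps27, had 6.82, 5.11 and 6.24 CPM in E3H, 9.93, 9.99, 8.96 and 11.6 in PS/E3H, 6.53, 5.39 and 5.94 in E4H and 10.4, 12.2, 9.002 and 10.2 in PS/E4H. Neither of these PS19 groups overlapped its parental line, and Rps27l had the largest log2 fold change of the family in both pairs (0.73 ± 0.14 SE, edgeR adjusted p = 0.01998, and 0.80 ± 0.14 SE, edgeR adjusted p = 0.00477). On the APOE2 background it ran from 7.3 to 10.8 CPM in E2H and from 7.2 to 11.4 in PS/E2H, so these groups overlapped. Its rank correlation with the median of the other members was 0.725, below the 0.949 that was the median over the family. Rpl36al, an intronless paralogue of Rpl36a, rose in PS/E3H against E3H (0.27 ± 0.07 SE, edgeR adjusted p = 0.0482) and missed the threshold in PS/E4H against E4H (0.29 ± 0.09 SE, edgeR adjusted p = 0.0637).

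Rpl39l was counted in 1 of 9 parental mice, E3H replicate 3, with 11 counts, and in 7 of 12 PS19 mice, with 77 counts in all and at most 19 in a mouse. All E2H and E4H mice were at 0. It passed the minimum for this set and the filter on low counts mainly through the PS19 mice, so nothing is read from its call in PS19 minus parental mice, which is 1 of the 53 above. Its fitted fold change depends on the prior count and is not given. Rpl3l was counted in all mice, from 2 to 47 counts, with 242 counts in the 9 parental and 183 in the 12 PS19 mice, and was called in no comparison.

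**Figure D4:**
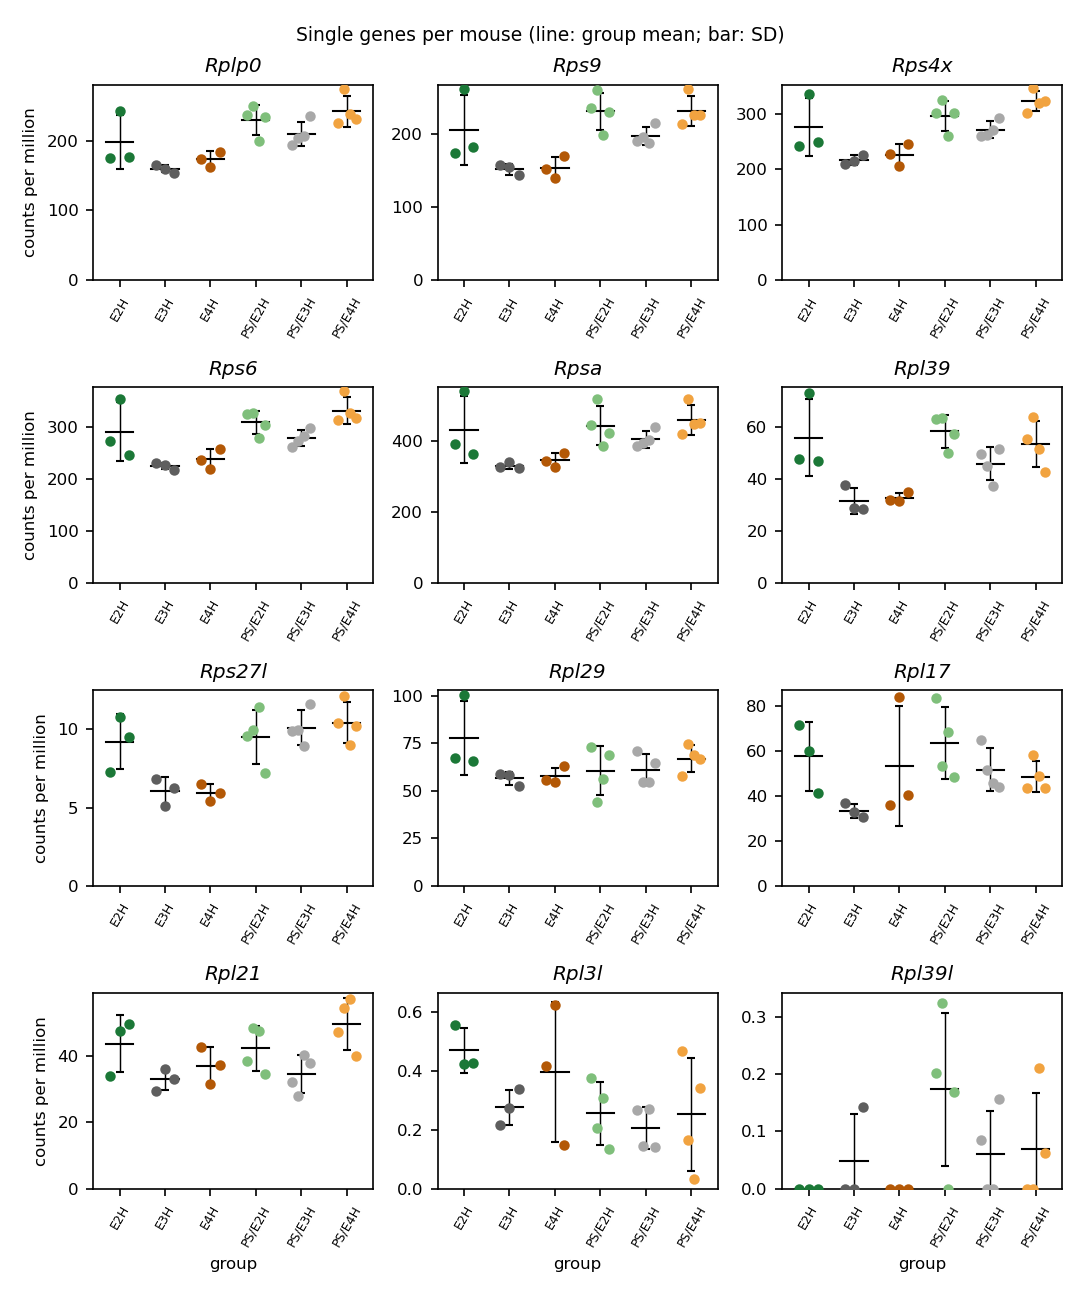
CPM of 12 genes in each mouse by group, with the group mean (line) and SD (bar, n = 3 or 4), each on its own axis from 0. Rplp0, Rps9, Rps4x, Rps6 and Rpsa share a pattern with low E3H and E4H mice, Rps27l separates PS19 from E3H and E4H mice, Rpl17 and Rpl29 have single mice that stand apart, and Rpl39l is at 0 in the E2H and E4H mice.

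Transcript length moved with these differences. The 80 genes had a median transcript length of 764 bases (345 to 5130). Other coding genes of 575 to 968 bases shifted the same way as the ribosomal protein genes in most comparisons, by a smaller amount. Their median log2 fold change was 0.26 over 916 genes in E2H against E3H (ribosomal protein genes 0.47), 0.09 over 934 in PS/E3H against E3H (0.28) and 0.14 over 920 in PS/E4H against E4H (0.42). In those 3 comparisons 78, 77 and 76 of the 79 ribosomal protein genes lay above the median of the genes of like length. Among coding genes of over 6000 bases the medians were -0.20, -0.08 and -0.14. In PS/E2H against E2H the genes of like length had a median of -0.06 and the ribosomal protein genes 0.01.

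With an offset per mouse for the length trend, fitted on coding genes outside the family, the median fell to 0.16 with 3 calls in PS/E3H against E3H and to 0.23 with 29 calls in PS/E4H against E4H. In E2H against E3H the median became 0.30. In the averaged contrasts the calls fell from 53 to 34 for PS19 minus parental mice and from 55 to 13 for APOE2 minus APOE3. In PS/E4H against E4H, 73 of 79 genes stayed above 0 after the offset, and in PS/E3H against E3H 76 did.

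**Figure D5:**
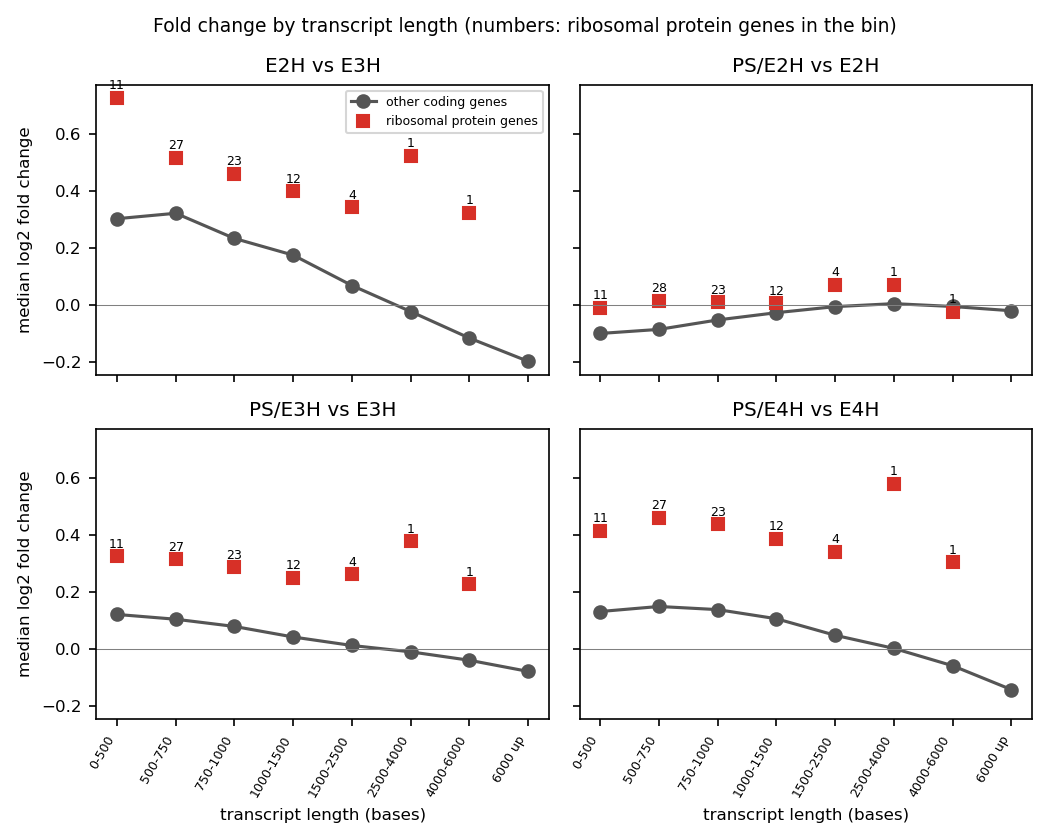
Median log2 fold change of other coding genes (circles) and of ribosomal protein genes (squares, with the number of genes in the bin) by transcript length in bases, in 4 comparisons. From 750 bases up the circles fall with length in E2H vs E3H, PS/E3H vs E3H and PS/E4H vs E4H and not in PS/E2H vs E2H, and the squares lie above the circles in every bin of the first 3 of these that holds one. Bins over 1500 bases hold at most 4 ribosomal protein genes.

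Single mice departed from the family in 10 of 1638 values, taken as more than 0.5 on the log2 scale from the median of the 78 genes with at least 1 CPM in every mouse. They fell in 7 genes: Rpl7a, Rpl17, Rpl29, Rpl38, Rps2, Rps13 and Rps27. When the counts of all genes sharing 50-base sequences were added, 8 of the 10 came within that limit. After the same sum 5 of all values lay past the limit, some of them not among these 10. Rpl17 stood at 84.4 CPM in E4H replicate 2 against 35.9 and 40.5 in the other E4H mice, while the 11 pseudogenes named after it summed to 87.7 there, the lowest of all mice (144 to 264 in the others). Summed with these copies, Rpl17 stood at -0.02 from the family median in that mouse on the log2 scale, where alone it stood at 1.11.

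Rps27 was low in E4H replicate 2, at 37.7 CPM (62.4 to 146 in the other mice), and Rps27rt, a gene that shares its sequence, was at 37.6 there (2.47 to 28.7 in the others). Rpl29 was low in PS/E2H replicate 2, at 44.3, where Gm8210 was at 38.9 (0.557 to 2.14 in the others). Rps13 was low in PS/E2H replicate 3, at 57.7, where its 7 named copies summed to 38.1 (4.03 to 21.4 in the others). Rps2 was low in PS/E2H replicate 2, at 173, where Rps2-ps10 was at 199 (6.52 to 17.3 in the others). Summed with all genes that share its sequence, Rps2 stood at 0.58 from the family median, past the limit on the other side. Rpl38 in PS/E4H replicate 4, at 28.3 CPM and -0.59 from the family median, stood at -0.60 after the same sum. Over the whole family, a median of 20.9% of a gene's 50-base transcript windows also occurred in a transcript of another gene, from 0% for genes such as Rpl3l and Rpl39l to 81.1% for Rpl36, with 60% for Rplp1 and 57.4% for Rpl19. When each gene was summed with the pseudogenes named after it, the median fold changes hardly moved (0.47 in E2H against E3H, 0.42 in PS/E4H against E4H), but Rpl17 changed sign in PS/E4H against PS/E2H, from -0.39 to 0.02. Levels of the genes named with these departures are uncertain in single mice. Of 115 such copies tested in PS/E4H against E4H, 20 were called higher, beside 8.62% of all genes, and 98 lay above 0, with a median of 0.35.

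Other genes of translation were described from fixed lists. Of 21 genes for elongation factors and other TOP transcripts, 11 rose and none fell in PS/E4H against E4H, with a median of 0.26, beside the 8.62% of all genes called higher. The list also holds Rack1 and Fau, given above, and the non-coding Gas5 and Snhg1. Eif3e, Eif3f, Eif3h and Eif4b are in it and in the list of initiation factors below, so these lists are not separate. Tpt1, the translationally controlled tumour protein, rose by 0.51 ± 0.06 (SE, edgeR adjusted p = 0.000899), as did the elongation factor subunit Eef1b2 (0.44 ± 0.07 SE, edgeR adjusted p = 0.00273) and Eef1a1, which brings aminoacyl-tRNA to the ribosome (0.40 ± 0.07 SE, edgeR adjusted p = 0.00425). In PS/E3H against E3H 4 of the 21 rose, with a median of 0.21, beside 3.35% of all genes called higher. In E2H against E3H none was called, with a median of 0.25, where 0.178% of all genes were. Of 37 ribosome biogenesis genes, 2 were called in PS/E4H against E4H, Pes1 (0.25) and Polr1c (0.31), and the median was 0.02, so this list stayed near the median of all genes. Of 46 translation initiation factors tested there, 9 were called higher and 1 lower, with a median of 0.15. Of 20 mTORC1 and TOP regulators in the same comparison, 1 was called higher and 3 lower, with a median of -0.09. Of all genes, 15.6% were called there in either direction. Ddit4, an inhibitor of mTORC1, rose (0.53 ± 0.08 SE, edgeR adjusted p = 0.00333). Rps6kb2, an S6 kinase, and Tsc1 and Tsc2, which together inhibit mTORC1, fell, with log2 changes of -0.65, -0.25 and -0.36.

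The oxidative phosphorylation subunits and the mitochondrial ribosomal proteins were set beside the family. Their median transcript lengths were 737 and 1224.5 bases, beside 764 for the family, so the second list was not alike in length. In PS/E4H against E4H, 6 of 78 mitochondrial ribosomal protein genes were called higher (median 0.09) and 12 of 84 oxidative phosphorylation genes (median 0.20), beside 8.62% of all genes called higher, and both medians were below the 0.42 of the cytosolic ribosomal protein genes. In APOE2 minus APOE3 the oxidative phosphorylation genes had 55 of 84 called higher and a median of 0.34, close to the 55 of 80 and 0.35 of the cytosolic ribosomal protein genes, and the mitochondrial ribosomal protein genes had 24 of 78 and a median of 0.23, beside 2.77% of all genes called higher. In PS19 minus parental mice the medians were 0.10 for the oxidative phosphorylation and 0.03 for the mitochondrial ribosomal protein genes, beside 0.25.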

How the data were processed

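Poly(A) RNA of 21 mouse forebrains was sequenced from stranded libraries. The authors deposited gene counts per mouse and FPKM values made by StringTie, and their processing notes name cutadapt, HISAT2, DESeq2 and edgeR with the build GRCm38.p5. No versions are given, and how the counts were derived is not given in the sources used here. The deposited FPKM values equalled counts over merged exon length times a constant in 78 of the 80 genes, so they are no independent measure.

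Genes were grouped by GEO's labels and tested on the deposited counts with edgeR 4.0.16 (R 4.3.3; TMM factors, filterByExpr, quasi-likelihood F test, Benjamini-Hochberg adjustment over all genes tested, threshold 0.05). Each pair was fitted on its own mice; averaged contrasts and interactions used all 21. The p-values weigh a difference between groups against the spread between mice. Alternatives were DESeq2 1.42.0, limma 3.58.1 on log2(FPKM + 1) and log2(FPKM + 0.1), no low-count filter, length and GC offsets (splines of 5 df on other coding genes), a replicate block, and each mouse left out. Coding status and length came from the gene annotation GENCODE M21 where its IDs matched. Named were the 5 highest and 5 lowest genes by FPKM, those with the smallest p per comparison, those against the majority, the stalk, Rpsa, Rps6, the paralogues, and the genes most like the others. Genes given only as the largest folds, the single-mouse departures and the list examples were chosen after their values were seen. Results of some single genes are not reported here, though the counts and medians include them. Members and lists were chosen with earlier results of these data known.

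Depth was 59265459 to 75932183 counts per mouse. On data simulated from these mice, edgeR recovered 23% of genes changed by 0.5 and 96% of those changed by 1 (log2) at the size of E2H against E3H (20234 genes), and 38% and 95% at that of PS/E4H against E4H (20294 genes). The changed genes were a small part of all genes, drawn at random from those above a low level. Each varied on its own, while the ribosomal protein genes moved together. These rates are therefore not the recovery for this family, nor for a comparison in which many more genes differ. The chi-square per gene between replicates was at least 19.2, and no 2 libraries were identical.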

Additional observations from a re-analysis of the deposited data

Results flagged for a closer look

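In 126 tests of 42 quantities in groups of 4 mice, 5 had a highest or lowest mouse set off from the rest by more than Dixon's critical value for 4 samples. Chance flags about 1 in 20 groups. Of these 5, 4 were the same mouse, PS/E4H replicate 2: the share of counts on the ribosomal protein genes was 1.612% (1.331% to 1.372% in the other 3 mice), the share on their pseudogene copies was 0.1178% (0.09746% to 0.09843%), Rpl19 stood at 339 CPM (266.8 to 277) and Rps23 at 248.3 (190.2 to 198.5). The fifth was Rpl35a in PS/E3H replicate 3, at 104.6 CPM (125.9 to 128.9 in the others).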

How the results depend on the processing

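The count of genes called moved by over 1.5 times under several settings, while the medians given in this section kept their sign. The median of PS/E2H against E2H (0.01) lay so near 0 that no direction is read from it. The cause was not tested. Among values of single named genes, 34 lost and 20 gained a call under a setting, 2 changed sign, and 1126 did none of these. With the transcript length offset, calls fell to 3 (PS/E3H against E3H, median 0.1586), 29 (PS/E4H against E4H, 0.2318), 13 (APOE2 minus APOE3) and 34 (PS19 minus parental). With length and GC they were 4 (0.1449), 25 (0.2141), 15 and 23. The APOE4 against APOE2 interaction median was 0.2329 with the length offset. The replicate numbers did not pair the mice (correlations of same-numbered mice from -0.12 to 0.095). With a replicate block the calls were 7 in PS/E3H against E3H, 33 in PS/E4H against E4H and 53 in both averaged contrasts, and with the block and the length offset 1 (0.1449), 15 (0.2703), 6 and 20, with an interaction median of 0.2271. Without the low-count filter they were 12, 39 and 15 (APOE2 minus APOE3). DESeq2 called 49 in E2H against E3H, 16 in E4H against E2H, 53 in PS/E3H against E3H, 5 in APOE4 minus APOE2 and 2 in the APOE4 against APOE2 interaction. limma on log2(FPKM + 1) called 19 in PS/E3H against E3H and 23 in APOE2 minus APOE3, and on log2(FPKM + 0.1) 24 in the latter. As contrasts of all 21 mice, E2H against E3H had 3 calls, E4H against E2H 1 and PS/E3H against E3H 3. Mean shares without mitochondrially encoded genes were 1.106% (E3H), 1.15% (E4H), 1.342% (PS/E3H) and 1.548% (PS/E4H).

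Chosen after seeing the data were the offset on merged exon length, with calls of 1 (E2H against E3H), 5 (PS/E3H against E3H, median 0.1716), 28 (PS/E4H against E4H, 0.2491), 30 (APOE2 minus APOE3) and 27 (PS19 minus parental), and counts summed with pseudogene copies, which reversed Rpl17 in PS/E4H against PS/E2H (0.02373) and in the APOE4 against APOE3 interaction (0.1634). With each mouse left out in turn, calls ran from 0 to 2 in E2H against E3H, 0 to 1 in E4H against E2H, 0 to 42 in PS/E3H against E3H, 23 to 61 in PS/E4H against E4H, 0 to 70 in APOE2 minus APOE3, 0 to 4 in APOE4 minus APOE2 and 42 to 68 in PS19 minus parental. The interaction medians ran from -0.3682 to -0.06878 (APOE2 against APOE3) and 0.2115 to 0.517 (APOE4 against APOE2), both extremes nearest 0 without E2H replicate 2.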
